A study of Homo sapiens with 4 samples.

Results

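FGF19, its co-receptor KLB (β-klotho) and the FGF receptors FGFR1, FGFR2, FGFR3 and FGFR4 were followed in Huh7 and PLC cells under low and high glucose. These 6 genes were chosen by name and were found by their symbol among the 59652 genes of the count table. FGF19 was read in Huh7 cells and not in PLC cells, where it had 0 reads at both glucose concentrations. KLB and FGFR3 were higher in Huh7 cells, FGFR1 was higher in PLC cells, FGFR4 was not called between the lines, and FGFR2 had no read in any library. For glucose none of the 5 genes with reads passed the adjusted test or, with FPKM scaled by library totals, the ratio thresholds. FGF19 could be set against these thresholds only in Huh7 cells. KLB in PLC cells passed them under TMM and under DESeq2 scaling.

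FGF19 is an endocrine fibroblast growth factor that the intestine releases in response to bile acids. It reaches hepatocytes through the blood, and there it binds a pair of membrane proteins, a tyrosine kinase receptor and KLB, which holds the ligand on the receptor. FGFR4 is the receptor through which FGF19 signals in liver, where the signal lowers bile acid synthesis. Normal hepatocytes make little FGF19, and part of hepatocellular carcinomas make their own, which has led to the development of FGFR4 inhibitors.

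Huh7 and PLC are hepatocellular carcinoma cell lines, and the labels give both as wild type (WT). All cells were grown in glucose-free DMEM with 10% serum to which glucose was added, 5 mM for low glucose and 25 mM for high glucose, and RNA was taken after 48 h. There was 1 library for each line and glucose concentration, with no replicate cultures among the 4, and each line stands for itself and not for carcinomas of one kind. The depth was lowest for PLC cells at 25 mM, with 16049686 counted reads, and highest for the same cells at 5 mM, with 30279716. The 11 hepatocyte markers that were looked up summed to between 30737 and 31515 CPM (reads scaled to the library total) in Huh7 cells. Their sum in PLC cells was lower, between 5389 and 8599 CPM. In PLC cells 2 of them, TTR and FOXA2, were at or near 0, with 4 reads each at 5 mM and 0 reads at 25 mM. Endothelial markers summed to at most 19.7 CPM and leukocyte markers to at most 60.6 CPM, with 3 of 4 and 3 of 5 at or under 3 reads in every library, and fibroblast markers summed to at most 21.2 CPM. Their sums were higher in Huh7 cells too, mostly from PECAM1, LYZ and LUM.

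The promoters of KLB, FGFR3 and FGFR4 are shown because the first 2 were called between the lines and FGFR4 was not. The sequences were taken from RefSeq on GRCh38.p14, run from 250 bases before the start of the gene to 50 bases after it, and are given 5′ to 3′ on the strand of the gene. Capitals mark the GC box GGGCGG or its complement CCGCCC, which is the core of the site of SP1 and related factors. Of all 35116 promoters of this length, 45.0% held a GC box on either strand, and their median GC content was 58.7%. The promoter of KLB lies at chr4:39406680-39406979 on the plus strand, that of FGFR3 at chr4:1793043-1793342 on the plus strand and that of FGFR4 at chr5:177086665-177086964 on the plus strand.
KLB: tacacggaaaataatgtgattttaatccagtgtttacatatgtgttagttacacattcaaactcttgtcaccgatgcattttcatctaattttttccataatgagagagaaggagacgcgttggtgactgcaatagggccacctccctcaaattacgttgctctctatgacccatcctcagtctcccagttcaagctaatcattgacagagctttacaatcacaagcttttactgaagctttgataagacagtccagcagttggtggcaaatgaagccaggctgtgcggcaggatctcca
FGFR3: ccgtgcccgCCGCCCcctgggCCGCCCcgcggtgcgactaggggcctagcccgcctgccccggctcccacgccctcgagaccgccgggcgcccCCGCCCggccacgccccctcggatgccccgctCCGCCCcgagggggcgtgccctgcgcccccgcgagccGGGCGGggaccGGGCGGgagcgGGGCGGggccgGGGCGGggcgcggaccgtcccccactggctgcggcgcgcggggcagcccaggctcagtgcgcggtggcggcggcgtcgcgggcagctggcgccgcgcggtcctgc
FGFR4: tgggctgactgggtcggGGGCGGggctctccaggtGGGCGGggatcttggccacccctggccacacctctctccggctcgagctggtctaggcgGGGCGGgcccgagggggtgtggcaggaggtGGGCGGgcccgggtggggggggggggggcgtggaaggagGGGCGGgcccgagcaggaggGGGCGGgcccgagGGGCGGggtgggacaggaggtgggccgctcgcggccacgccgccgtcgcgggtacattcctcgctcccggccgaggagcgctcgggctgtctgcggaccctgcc
The promoter of KLB had a GC content of 42.3%, 6 CpG and no GC box. The promoter of FGFR3 had a GC content of 86.3%, 51 CpG and 8 GC boxes, and that of FGFR4 had 78.7%, 30 CpG and 7 GC boxes. None of the 3 windows held the letters TATAAA (the TATA box, in 11.5% of all promoters) or CACGTG (the E-box, in 7.26%). FGF19 and FGFR1 had no entry in the promoter table used here.

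Levels were compared between genes as FPKM, the reads of a gene scaled to the length of its exons and to the total of the library. In Huh7 cells the order from high to low was FGFR3 and FGFR4, KLB, FGF19 and FGFR1, with FGFR2 at 0. At 5 mM FGFR3 and FGFR4 stood at 63.4 and 63.3 FPKM, and their ratio within the library was 1.0 with a 95% interval of 0.968 to 1.04. At 25 mM FGFR4 was above FGFR3, with 59.6 against 53.7 FPKM and a ratio of FGFR3 to FGFR4 of 0.901 (0.874 to 0.929). In PLC cells the order was FGFR4, KLB, FGFR3 and FGFR1, with FGF19 and FGFR2 at 0. FGFR3 and FGFR1 were next to each other in this order, with 12.5 and 9.57 FPKM at 5 mM and 9.61 and 9.25 FPKM at 25 mM, and their ratio at 25 mM had an interval that held 1 (FGFR1 to FGFR3, 0.962, 0.885 to 1.05). All intervals are exact binomial (Clopper-Pearson) 95% intervals and cover the counting of reads only, not the difference between cultures.

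FGF19 was the member with the widest gap between the lines. The gene (ENSG00000162344.4) lies on the minus strand of chromosome 11 from 69698238 to 69704022 on GRCh38, in 3 exons of 1821 bases together, and no other gene of the table overlaps it. Huh7 cells had 528 reads (13.6 FPKM) at 5 mM and 575 reads (10.5 FPKM) at 25 mM, and PLC cells had 0 reads in both libraries. With 0 reads, a level of up to 3 reads is allowed for, which is 0.0544 FPKM at 5 mM and 0.103 FPKM at 25 mM in PLC cells. Measured against these limits, the level of FGF19 in Huh7 cells was at least 249-fold higher at 5 mM and at least 102-fold higher at 25 mM. In these bulk libraries fewer cells that express a gene and less RNA in each cell cannot be told apart.

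The difference between the lines was tested with the quasi-likelihood test of edgeR on all 4 libraries, in which the cell line and glucose were both terms of the model. Each line has only its low-glucose and its high-glucose library, so the p-values do not measure the spread between cultures of a line. They rest on what the 4 libraries leave after line and glucose, with 1 residual degree of freedom. The spread used for a gene was therefore in large part that shared over all tested genes. Of 23217 genes tested, 21.8% were called higher in Huh7 cells and 21.1% higher in PLC cells at an adjusted p under 0.05. Among the 5 members with reads, 3 were called higher in Huh7 cells (FGF19, KLB and FGFR3) and 1 higher in PLC cells (FGFR1). FGF19 had an adjusted p of 1.16e-07 in edgeR and of 0.018 in DESeq2, so with 0 reads in PLC cells the p-value depended on the tool. Its fitted log2 fold change of 12.11 in edgeR rests on the small count that the tool adds to 0 and is no estimate of its size. In DESeq2 it was 11.36 with an SE of 4.0. The thresholds for ratios asked for FPKM above 0.5 and for a ratio above 1.5 or below 0.67, here at both glucose concentrations. By them the same 3 members were higher in Huh7 cells, against 24.5% of the 21804 genes over that level, and FGFR1 was higher in PLC cells, against 22.8%.

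A gene read in one line and at 0 in the other was not rare. Among 19159 protein-coding genes, 178 had at least 20 reads in both Huh7 libraries and 0 in both PLC libraries, and 206 showed the opposite. FGF19 was number 21 of the 178 by its reads. These counts were made after the values of FGF19 were seen.

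KLB, the co-receptor, was read in all 4 libraries. The gene (ENSG00000134962.7) is on the plus strand of chromosome 4 from 39406930 to 39451533, with 5 exons of 6002 bases. The table holds MIR5591 and AC021148.2 inside it, with at most 16 reads and no exon base shared, while RPL9, on the other strand, begins 1054 bases after its end. KLB had 4397 reads (34.3 FPKM) in Huh7 cells at 5 mM, 5900 reads (32.7 FPKM) at 25 mM, 3677 reads (20.2 FPKM) in PLC cells at 5 mM and 1379 reads (14.3 FPKM) at 25 mM. Both Huh7 libraries were above both PLC libraries. The ratio of Huh7 to PLC was 1.69 (1.62 to 1.77) at 5 mM and 2.27 (2.15 to 2.42) at 25 mM, and the fitted log2 fold change of edgeR was 0.97 with an SE of 0.22 and an adjusted p of 0.00349.

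FGFR4, the main liver receptor for FGF19, had the most even level in the lines. It lies on the plus strand of chromosome 5 from 177086905 to 177098144 (ENSG00000160867.15), in 19 exons of 4810 bases, and no gene of the table overlaps it. Huh7 cells had 6512 reads (63.3 FPKM) at 5 mM and 8619 reads (59.6 FPKM) at 25 mM, while PLC cells had 7361 reads (50.5 FPKM) and 5296 reads (68.6 FPKM). The lines overlapped, since the lowest and the highest of the 4 levels were both in PLC cells. Huh7 was above PLC at 5 mM (ratio 1.25, 1.21 to 1.30) and below it at 25 mM (0.868, 0.839 to 0.899). In edgeR the log2 fold change between the lines was 0.06 (SE 0.21), with a 95% interval of -0.40 to 0.51 and an adjusted p of 0.856.

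FGFR3 is a receptor of cartilage and epithelia that also pairs with klotho proteins. It was high in Huh7 cells. The gene (ENSG00000068078.20) is on the plus strand of chromosome 4 from 1793293 to 1808872, with 18 exons of 4848 bases and no overlapping gene. Huh7 cells had 6574 reads (63.4 FPKM) at 5 mM and 7829 reads (53.7 FPKM) at 25 mM, and PLC cells had 1832 reads (12.5 FPKM) and 748 reads (9.61 FPKM). Huh7 exceeded PLC 5.05-fold (4.83 to 5.36) at 5 mM and 5.54-fold (5.18 to 6.03) at 25 mM. The log2 fold change in edgeR was 2.41 (SE 0.22) and the adjusted p was 1.74e-06.

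FGFR1, the receptor through which FGF21 acts with KLB in fat tissue, had the opposite pattern. It lies on the minus strand of chromosome 8 from 38400215 to 38468834 (ENSG00000077782.23), and its 28 merged exons come to 14643 bases. Huh7 cells had 591 reads (1.89 FPKM) at 5 mM and 903 reads (2.05 FPKM) at 25 mM, while PLC cells had 4242 reads (9.57 FPKM) and 2173 reads (9.25 FPKM). PLC exceeded Huh7 4.86-fold (4.65 to 5.53) at 5 mM and 4.35-fold (4.17 to 4.88) at 25 mM. In edgeR the log2 fold change of Huh7 over PLC was -2.26 (SE 0.24), with an adjusted p of 5.45e-06. LETM2 and AC087623.1, on the other strand, share 138 and 387 exon bases with FGFR1 and had between 0 and 85 reads. Whether the counting used the strand is not given in the sources used here.

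FGFR2, which occurs in epithelia and is fused to other genes in some bile duct cancers, had 0 of 97790944 reads over the 4 libraries. The gene (ENSG00000066468.24) is on the minus strand of chromosome 10 from 121478332 to 121598458, with 31 exons of 7580 bases, and 3 reads would stand for 0.0131 to 0.0247 FPKM. A count of 0 in every library was found for 12.3% of the protein-coding genes of the table, and for 3.89% of the 8285 that are 5000 bases or longer. FGFR2 was not tested in edgeR for lack of reads.

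The hepatocyte markers moved with the line differences of FGF19, KLB and FGFR3. Of these 11 markers, 10 were called higher in Huh7 cells by edgeR, with HNF4A as the exception (log2 fold change -0.30, SE 0.20, adjusted p = 0.263), and their median log2 fold change was 2.24 where that of all tested genes was 0.03. The part of this difference in the values of the members was not tested.

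Both lines thus had reads of FGFR1, FGFR3 and FGFR4, and they differed in the share of each in the summed FPKM of FGFR1 to FGFR4. In Huh7 cells FGFR4 was 49.2% of the sum at 5 mM and 51.7% at 25 mM, whereas PLC cells had 69.6% and 78.4%. FGFR3 was 49.3% and 46.6% in Huh7 cells, against 17.2% and 11% for PLC. FGFR1 went the other way, with 1.47% and 1.78% for Huh7 and 13.2% and 10.6% for PLC. The receptors can be told apart by their reads, since at most 15 of 18045 windows of 31 bases in the transcripts of a receptor (FGFR1) also occurred in those of another member. They summed to 129 and 115 FPKM in the Huh7 libraries and to 72.6 and 87.5 FPKM in those of PLC.

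The length used for FPKM decided where FGFR1 stood. The merged exons of FGFR1 are 14643 bases long and its canonical transcript in GENCODE release 44 is 5697 bases long. With the canonical lengths FGFR1 came to 24.6 and 23.8 FPKM in PLC cells, above KLB and FGFR3, and made 21.0% and 16.8% of the receptor sum. FGFR4 was then the highest receptor in all 4 libraries, and FGFR3 was second to it in Huh7 cells with 71.5 FPKM against 98.5 FPKM at 5 mM. The reads behind a ratio of one gene between libraries, and its interval, do not depend on this choice, while the 0.1 FPKM added to both values weighs less at the shorter length.

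Ratios of one member to another in the same library do not depend on how libraries are scaled. They do depend on the gene lengths, here those of the merged exons, by the same factor in every library. With canonical lengths FGFR4 came to 98.5 FPKM in Huh7 cells at 5 mM, against 63.3 FPKM, while KLB stayed at 34.3 FPKM. KLB stood to FGFR4 as 0.541 (0.521 to 0.562) in Huh7 cells at 5 mM and as 0.549 (0.531 to 0.567) at 25 mM. In PLC cells this ratio was 0.40 (0.385 to 0.417) at 5 mM and 0.209 (0.197 to 0.221) at 25 mM. The ratio of co-receptor to receptor was therefore close to equal at both concentrations in Huh7 cells and lower at 25 mM in PLC cells, with no replicate to set beside it. FGFR3 to FGFR4 in PLC cells was 0.247 (0.234 to 0.260) at 5 mM and 0.140 (0.130 to 0.151) at 25 mM. FGF19 to KLB in Huh7 cells was 0.396 (0.361 to 0.433) at 5 mM and 0.321 (0.294 to 0.350) at 25 mM.

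No member passed the thresholds for glucose when FPKM was scaled by library totals. Ratios of 25 mM to 5 mM were taken with 0.1 FPKM added to both values. In Huh7 cells 0 of 5 members passed, where 27.8% of the 21864 genes over 0.5 FPKM did, and in PLC cells 0 of 4 members passed, where 43.3% of 21749 genes did. In Huh7 cells the ratio was 0.775 for FGF19 (0.686 to 0.872), 0.954 for KLB (0.917 to 0.992), 1.08 for FGFR1 (0.978 to 1.21), 0.846 for FGFR3 (0.819 to 0.874) and 0.941 for FGFR4 (0.911 to 0.971). The 5 ratios lay between 0.775 and 1.08, and the interval of FGFR1 held 1.

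In PLC cells the ratios were farther apart. The ratio was 0.709 for KLB (0.665 to 0.753), 0.772 for FGFR3 (0.707 to 0.839), 0.967 for FGFR1 (0.917 to 1.02) and 1.36 for FGFR4 (1.31 to 1.41). KLB and FGFR3 were thus lower at 25 mM than at 5 mM in both lines, and FGFR4 was lower in Huh7 cells and higher in PLC cells, by sizes short of the thresholds.

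The scaling of the PLC libraries bore on this comparison. TMM scaling, which sets the libraries by the bulk of their genes, shifted the log2 ratios of PLC cells by -0.16 and those of Huh7 cells by -0.03. Under it the ratio in PLC cells was 0.633 for KLB, past the threshold of 0.67, and 0.690, 0.864 and 1.21 for FGFR3, FGFR1 and FGFR4. With the size factors of DESeq2 the ratio of KLB was 0.647, also past the threshold.

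A change with glucose shared by both lines was tested in the same edgeR model, in which 0.379% of 23217 genes were called. None of the 5 members was called, none had an unadjusted p under 0.05, and DESeq2 and limma called none either. The fitted log2 fold change of 25 mM over 5 mM was -0.41 (SE 0.44) for FGF19, -0.36 (SE 0.22) for KLB, -0.05 (SE 0.23) for FGFR1, -0.39 (SE 0.21) for FGFR3 and 0.10 (SE 0.21) for FGFR4. FGF19 had 0 reads in both PLC libraries. Its value therefore rests on the Huh7 libraries and cannot show whether a change is shared by both lines. The adjusted p of edgeR was 0.707 for FGFR3, the lowest of the 5, and 0.990 for FGFR1, the highest. The 95% interval of FGFR4 ran from -0.35 to 0.55 and that of FGFR3 from -0.84 to 0.07. The fit does not tell apart the sizes of change within each interval, and both intervals held 0.

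**Figure D1:**
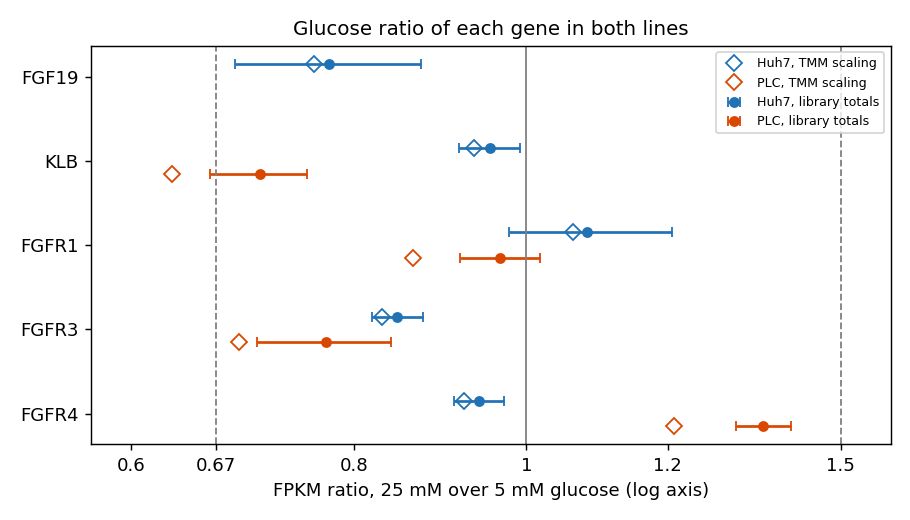
Ratio of FPKM at 25 mM to 5 mM glucose (horizontal log axis) for the 5 members with reads, in Huh7 and in PLC cells. Filled points are ratios by library totals with the 95% counting interval, open diamonds are ratios with TMM scaling, and dashed lines are the thresholds of 0.67 and 1.5. The open diamond of KLB in PLC cells, at 0.633, is the only one beyond a threshold.

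The other FGF ligands were mostly too low to be tested. Of 21 ligands looked up, 6 had 0 reads in all libraries and 6 had enough reads for edgeR. FGF2, a paracrine ligand, was higher in Huh7 cells, with 249 and 344 reads in Huh7 cells at low and high glucose and 198 and 38 reads in PLC cells (log2 fold change 1.49, SE 0.41, adjusted p = 0.00933 in edgeR). FGF12, an intracellular member of the family that is not secreted, was higher in PLC cells, with 194, 259, 458 and 309 reads in this order of libraries, which is kept for the genes that follow (-0.95, SE 0.31, adjusted p = 0.0223). In edgeR 1 of the 6 ligands was thus called in each direction, near the 21.8% and 21.1% of all tested genes. DESeq2 called none of the 6 ligands between the lines, and limma called 3. FGF21, the other hormone that uses KLB, had 10, 0, 4 and 0 reads and was too low to be tested, and it is named here after its values were seen.

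Of 11 genes tested that act at the receptor, 5 were higher in Huh7 cells and 1 was higher in PLC cells, where 21.8% and 21.1% of all tested genes were, with a median log2 fold change of 0.48 against 0.03 over all genes. GAB1, an adaptor that recruits PI3 kinase, had 2366, 3186, 610 and 316 reads (log2 fold change 2.44, SE 0.24, adjusted p = 3.55e-06 in edgeR). FGFRL1, a receptor without a kinase domain, had 3301, 4230, 786 and 532 reads (2.32, SE 0.24, adjusted p = 4.99e-06). FRS2, the adaptor that FGF receptors phosphorylate first, and PLCG1, a phospholipase that binds the receptor tail, were higher by less, with log2 fold changes of 0.75 and 0.98. KL, the α-klotho co-receptor of FGF23, was low everywhere, with 19, 22, 2 and 2 reads. SHC1, another adaptor, was higher in PLC cells (-0.69, SE 0.22, adjusted p = 0.0227).

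Heparan sulfate proteoglycans, which hold paracrine FGFs at the cell surface, were called in both directions, and the count higher in PLC cells was near the share of all genes. Of 10 tested, 4 were higher in Huh7 cells (SDC1, SDC2, GPC3 and AGRN; 21.8% of all genes) and 2 were higher in PLC cells (GPC1 and GPC6; 21.1%), with a median of 0.22. SDC2 had 3678, 3679, 8 and 4 reads, and GPC3, a marker of hepatocellular carcinoma, had 12053, 15979, 2451 and 980 reads. GPC1 had 78, 52, 2323 and 639 reads, and its ratio of 25 mM to 5 mM passed the threshold in both lines, at 0.553 for Huh7 and 0.523 for PLC. Its adjusted p for glucose in edgeR was 0.131.

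**Figure D2:**
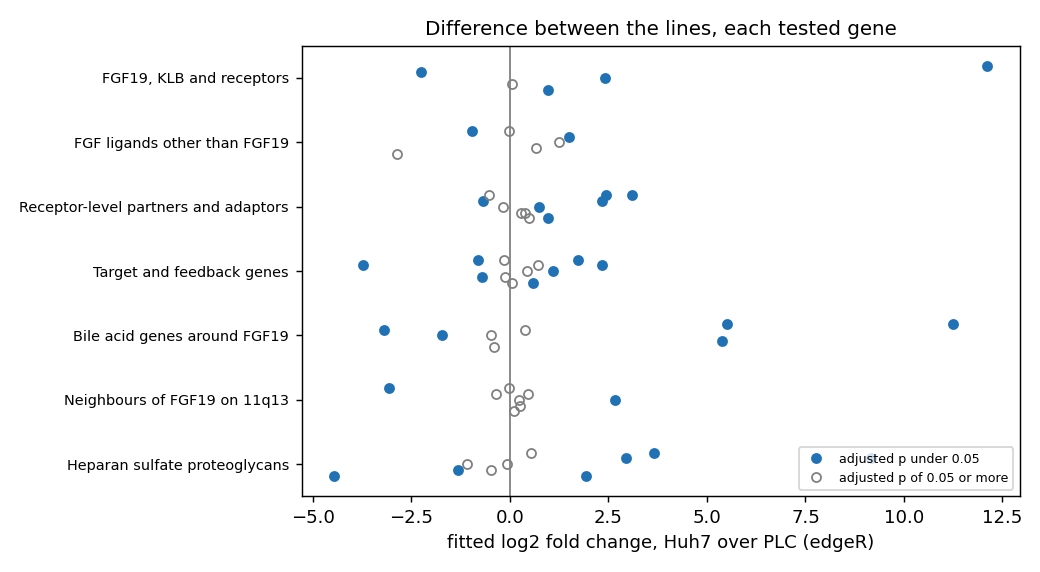
Fitted log2 fold change of Huh7 over PLC in edgeR (horizontal axis) for each tested gene of the members and of 6 lists of related genes. Filled points have an adjusted p under 0.05 and open points do not. The point of FGF19 at 12.11 depends on the small count added to 0, and that of NR1H4 at 11.26 rests on 5 and 0 reads in PLC cells.

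Target and feedback genes of FGF receptor signalling were read in both lines. Of 12 genes, 4 were higher in Huh7 cells (SPRED2, DUSP5, DUSP6 and ETV5) and 3 were higher in PLC cells (DUSP4, ETV1 and IL17RD), with a median log2 fold change of 0.25. The same calls were made for 21.8% and 21.1% of all tested genes, and the count higher in PLC cells is near that share. DUSP6, a phosphatase of ERK that the pathway induces, had 1648, 3077, 702 and 1182 reads (1.09, SE 0.29, adjusted p = 0.00766 in edgeR). IL17RD, an inhibitor of the receptors also called SEF, had 12, 50, 276 and 308 reads (-3.72, SE 0.40, adjusted p = 6.4e-06).

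In PLC cells, by library totals, the ratio of 25 mM to 5 mM passed the thresholds more often upwards than downwards for these genes. Over all genes upward calls were also the more frequent, at 60.7% of the calls. In Huh7 cells 2 of the 11 genes over 0.5 FPKM passed, both upwards, namely SPRY1 (1.54) and ETV1 (2.20). In PLC cells 7 of 12 passed upwards and 1 downwards. The 7 were SPRY1 (1.79), ETV1 (1.66), DUSP6 (3.14), IL17RD (2.0) and, named after their values were seen, SPRY2 (1.67), SPRY4 (1.74) and ETV4 (1.92). DUSP5 passed downwards at 0.470. Against these counts stand 27.8% and 43.3% of all genes, in either direction. By direction, 5709 of 21749 genes over 0.5 FPKM passed upwards and 3700 downwards in PLC cells. TMM scaling left 5 of the target genes upwards and 2 downwards in PLC cells, where 4530 and 4884 of 21721 genes passed. In edgeR 0 of the 12 passed for glucose, and DESeq2 and limma called none. An unadjusted p under 0.05 was found for 6 of 12, 4 of them upwards, where 8.51% of all tested genes had one, and the median log2 fold change was 0.32 against -0.01 over all genes. The hepatocyte markers moved with these genes in PLC cells, where their sum was 5389 CPM at 5 mM and 8599 CPM at 25 mM. Of the 11 markers, 4 had an unadjusted p under 0.05 for glucose, all upwards, and 0 passed the adjusted test of edgeR, and their part in the ratios of the target genes was not tested.

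**Figure D3:**
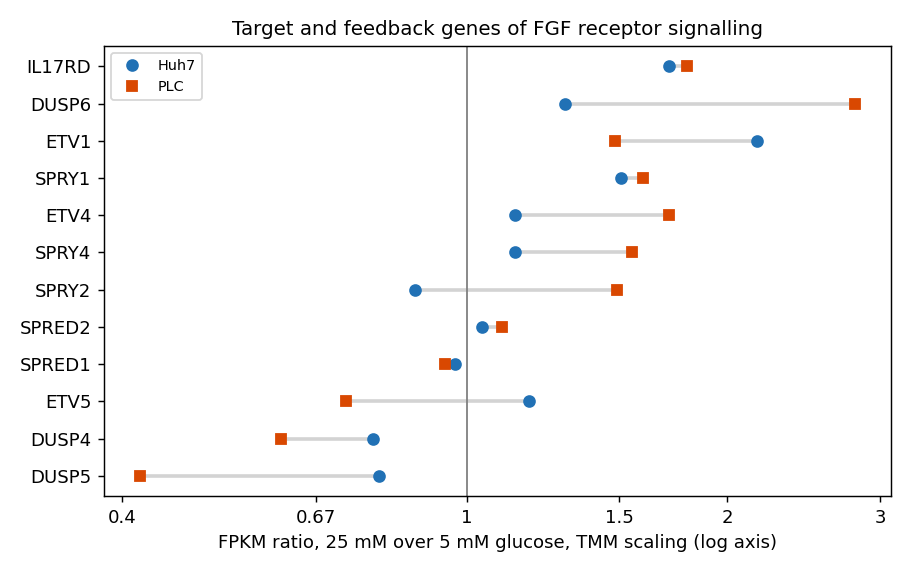
Ratio of FPKM at 25 mM to 5 mM glucose with TMM scaling (horizontal log axis) for 12 target and feedback genes, with circles for Huh7 and squares for PLC cells and a grey line between them. IL17RD, DUSP6, ETV1 and SPRY1 lie to the right of 1 in both lines, and DUSP4 and DUSP5 lie to the left of 1 in both.

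Bile acid genes, which lie upstream and downstream of FGF19, included genes with wide gaps between the lines. Of 8 tested, 3 were higher in Huh7 cells and 2 were higher in PLC cells, where 21.8% and 21.1% of all tested genes were. NR1H4, the bile acid receptor FXR that switches on FGF19 in the intestine, had 5397, 9247, 5 and 0 reads (adjusted p = 2.93e-09 in edgeR). CYP27A1, an enzyme of the alternative route of bile acid synthesis, had 219, 328, 10 and 2 reads, and ABCB11, the bile salt export pump, had 67, 47, 0 and 2 reads. NR0B2, the repressor SHP, was higher in PLC cells with 65, 107, 1068 and 418 reads, and SLC51B, a subunit of the bile acid exporter OST, was too, with 269, 433, 1024 and 918 reads. CYP7A1, the rate-limiting enzyme of bile acid synthesis that FGF19 lowers, had 0 reads in all 4 libraries.

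The genes near FGF19 on chromosome 11 were looked up by their reads. LTO1, the next protein-coding gene before it at a distance of 22822 bases, had 674, 860, 804 and 377 reads (log2 fold change 0.26, SE 0.26, adjusted p = 0.453 in edgeR). CCND1, cyclin D1, which is often amplified together with FGF19 in carcinomas, had 6247, 7160, 6368 and 3872 reads (0.22, SE 0.21, adjusted p = 0.425). Of 8 neighbours tested, SHANK2 was higher in Huh7 cells (2.68, SE 0.23), MYEOV was higher in PLC cells (-3.08, SE 0.69), and 6 were not called, where 21.8% and 21.1% of all tested genes were called in these directions. FGF4, the next gene on the other side at 67000 bases, and FGF3 had 2 reads or fewer in every library.

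The genes most like each member over the 4 libraries were taken by the smallest distance between centred log2 FPKM values among 10982 protein-coding genes with at least 20 reads in each library. For KLB they were ASIP (distance 0.0254), CNKSR3 (0.0422) and CASD1 (0.0662), and for FGFR4 DEPDC5 (0.0310), MIS18A (0.0361) and PDHA1 (0.0420). For FGFR1 they included TMEM185A (0.0886) and TARS3 (0.0950), and for FGFR3 they were ACSS3 (0.145), MYH14 (0.152) and ZNF320 (0.180). For FGF19 they were SLC16A7 (0.595), MTTP (0.656) and ST6GAL1 (0.716), and these distances are large by construction, since genes at 0 in PLC cells could not be among the candidates. With 4 points, likeness of this kind is a description of these libraries.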

How the data were processed

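RNA of Huh7 and PLC cells was depleted of rRNA and made into directional libraries by the authors. The deposited values are counts, whole numbers of reads per gene without normalization, and per the labels hg38, HISAT2 and featureCounts were used, without versions. The annotation release, the strand setting and the treatment of reads with several positions are not given in the sources used here. Of 59657 lines, 5 (a broken entry of ANK2) were left out, and 0 columns belonged to no sample. The positions of all 6 members equalled those of GENCODE release 44.

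FPKM was computed from counts, the table's gene lengths and library totals. Ratios used a pseudocount of 0.1 FPKM, and their Clopper-Pearson intervals were taken without it. The limits of the thresholds, FPKM above 0.5 and a ratio above 1.5 or below 0.67, are those the study used for lncRNAs, while the pseudocount and the passing of FPKM in at least 1 library were chosen here. Counts were tested with edgeR 4.0.16 (quasi-likelihood, TMM, filterByExpr, Benjamini-Hochberg) in R 4.3.3, with line and glucose as terms and 1 residual degree of freedom. DESeq2 1.42.0, limma 3.58.1, other scalings, filters and pseudocounts were alternatives, and canonical transcript lengths were added after the data were seen. On simulated data with 200 genes changed, edgeR recovered 13% of 2-fold changes between the lines (22292 genes) and 84.5% of 4-fold changes (22290 genes). For glucose it recovered 1% of 2-fold (22278 genes) and 82.5% of 4-fold changes (22252 genes). The simulation set the same dispersion for every gene and changed far fewer genes than the 9969 called between the lines here. These shares are therefore not the power of the tests on the data themselves.

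The members and the gene lists were chosen with earlier results of these data known. Named genes are the 6 members, listed genes with an adjusted p under 0.05 or past the ratio thresholds in both lines, the 3 nearest patterns (1 of those of FGFR1 is not reported here), and overlapping or adjacent genes. A count of 0 was read as up to 3 reads.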

Additional observations from a re-analysis of the deposited data

Results flagged for a closer look

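FGFR1 and FGFR4 stood on opposite sides of 1 in the lines when 25 mM was set over 5 mM glucose. The ratio of FGFR1 was 1.08 for Huh7 and 0.967 for PLC, and both counting intervals held 1. The ratio of FGFR4 was 0.941 for Huh7 and 1.36 for PLC, and neither interval held 1. With TMM scaling FGFR4 was at 0.922 and 1.21. Each line gave 1 ratio, so this difference could be given but was not tested.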

How the results depend on the processing

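No paired analysis was possible because the labels give no replicate numbers, so that the only pairing was by cell line, which is a term of the model. With 1 library for each condition no replicate could be left out. The count of members past the thresholds in PLC cells went from 0 to 1 (KLB) with TMM scaling and with DESeq2 scaling, and stayed at 0 under the other alternatives. In Huh7 cells it was 0 under every alternative tried. Between the lines 4 members passed under all alternatives but a ratio over 2 or under 0.5, which left 3, without KLB. In the fits 4 members were called between the lines, or 3 where at least 10 reads in every library were asked for, since FGF19 was then not tested, and 0 for glucose. The log2 fold change of FGF19 with glucose turned to 0.13 in DESeq2 (SE 3.97, adjusted p = 1.0) from -0.41, and the cause was not tested.

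Over all genes the calls for glucose were 88, against 526 with no filter on low counts, 27 with at least 10 reads in every library, 194 in DESeq2 and 0 without the cell line in the model. Calls between the lines were 9969, against 6340 with at least 10 reads in every library. Threshold calls in Huh7 cells fell from 6068 to 3092 with a pseudocount of 1 FPKM and to 3066 with a ratio over 2 or under 0.5, and in PLC cells from 9409 to 5982 and 5253. Of the calls in PLC cells 60.7% were higher at 25 mM, against 48.1% with TMM and 50.5% with DESeq2 scaling. Counting limits what 748 reads of FGFR3 or 528 of FGF19 can show, and the spread between cultures was not measured.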
